A study of Saccharomyces cerevisiae with 6 samples.

Results

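The TIR, DAN and CWP genes of Saccharomyces cerevisiae encode mannoproteins of the outer cell wall. The 9 genes were taken by name, as TIR1, TIR2, TIR3, TIR4, DAN1, DAN3, DAN4, CWP1 and CWP2, and 8 of them are among the 5656 genes that had a probe set of their own on the array. Each gene was read from the probe set that the platform table pairs with it alone, and 8 of the 9 had exactly 1 such probe set. DAN3, listed as PAU24 in the gene table, was matched only by 2 probe sets that also match other seripauperin genes, 7 and 3 genes in all, so no value was assigned to it.

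The wall of budding yeast is a mesh of glucan and chitin covered by mannoproteins, many of which enter the secretory pathway with a glycosylphosphatidylinositol (GPI) anchor and end up linked to glucan. Cells exchange part of this coat with oxygen supply. The aerobic proteins Cwp1 and Cwp2 are known to give way to Dan and Tir proteins when oxygen is short. In air the DAN and TIR genes are held down by the heme-dependent repressor Rox1, by Mot3 and by the Tup1-Cyc8 corepressor, and without air they are switched on through Upc2, which also responds to sterols.

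Floaters, cells of a film at the air-liquid interface, were compared with sinkers, cells that had settled in the same beakers. Both groups came from the strain 3238-32, labelled MATa leu2∆1 lys2-801 ura3-52, with no other treatment between them. After 24 h in rich glucose medium at 30°C, cells were diluted 10-fold into 100 ml of minimal medium with 4% ethanol, leucine, histidine and uracil in 250 ml beakers, where they stood at 27°C for 48 h. Each group has 3 arrays of total RNA. Beakers were set up in triplicate, but no label says which beaker an array came from, so the p-values reflect only how much these arrays vary. All cells are of 1 strain, many were in clumps, and the oxygen level at either site is not given in the labels.

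Values are linear signal intensities scaled to a common trimmed mean of 500 on each array, and the median signal ran from 135 to 138 on the floater arrays and from 128 to 151 on the sinker arrays. The brightest of 19 control probe sets taken as not spiked, used as an empirical background, read 16.5 to 21.9 on floater arrays and 16.3 to 44.8 on sinker arrays. The ratio of the 3' to the 5' control probe set of actin (ACT1), a sign of RNA integrity and of labelling, was 1.54 to 2.04 on floater arrays and 1.80 to 3.84 on sinker arrays. Sinker replicate 3 had the highest value of both measures. The mean of 5 control probe sets for 18S ribosomal RNA was 893 to 1217 on floater arrays and 3842 to 5759 on sinker arrays, and its part in the results was not tested. The mating type label was not borne out: all 6 a-specific genes checked were left out with the dimmest genes, whereas all 4 alpha-specific genes lay above the background on all 6 arrays, STE3 at 1907 ± 266 in floaters and 1121 ± 56.7 in sinkers (mean ± SD, n = 3 each). Of the a-specific genes MFA1 lay above the background in sinkers, at 116, 123 and 108, but read 13.9, 18.2 and 6.87 in floaters. All 4 sporulation genes checked were too dim to be tested. LEU2 was bright on the brightest of its 3 probe sets, at 5372 ± 380 in floaters and 9133 ± 2435 in sinkers. Where its probe sets lie relative to the deleted part was not determined. URA3 was too dim to be tested, at 30.3 ± 3.46 in floaters and 16.3 ± 1.02 in sinkers. LYS2 read 1084 ± 289 in floaters and 496 ± 159 in sinkers.

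TIR1, TIR2 and TIR4, mannoprotein genes of hypoxic cells, were lower in floaters than in sinkers by 2.72-fold to 5.23-fold, and so was the aerobic wall gene CWP1, by 1.70-fold. TIR3, DAN4 and CWP2 did not pass the test, and DAN1 was too dim to be tested. Of the 7 genes tested 4 were lower and 0 were higher at an adjusted p below 0.05, where 24.4% of the 4242 genes tested were lower and 38.0% higher. At an unadjusted p below 0.05 in limma 1 was higher, TIR3, and 4 were lower. The share of all genes at that unadjusted threshold was not taken. The test was limma on log2(signal + 16) with Benjamini-Hochberg adjustment over all 4242 genes, and the dimmest 25% of genes were left out. In 5 of the 7 genes every floater array lay below every sinker array, and in 1 gene, TIR3, every floater array lay above, against 26.7% and 41.3% of all genes tested. The median log2 fold change of the 7 was -0.76, against 0.17 over all genes. In bulk RNA a lower signal from fewer cells that express a gene and one from less RNA in each cell cannot be told apart.

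**Figure D1:**
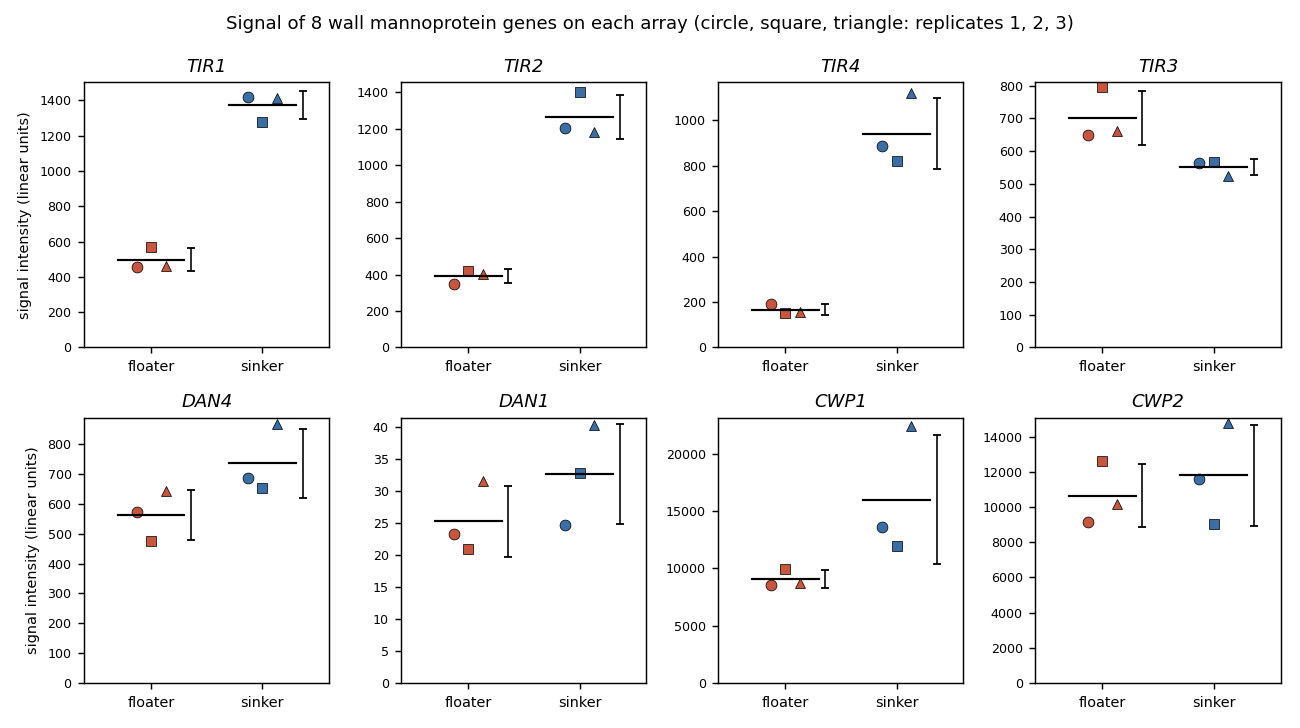
Signal intensity (linear, from 0, with its own axis for each gene) of the 8 genes with a probe set of their own on the 3 floater arrays (left, red) and the 3 sinker arrays (right, blue); lines are means, bars are SD, and circle, square and triangle are replicates 1, 2 and 3. TIR1, TIR2 and TIR4 separate the groups widely, TIR3 is the gene with floaters above sinkers, and sinker replicate 3 is the highest array for CWP1, CWP2, DAN1, DAN4 and TIR4.

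TIR4, one of the TIR genes needed for growth without oxygen, had the largest difference of the 7. Its signal was 193, 151 and 156 on floater arrays 1 to 3, against 886, 821 and 1119 on sinker arrays 1 to 3. The groups lay far apart, with all floater arrays low. The log2 fold change was -2.39 (SE 0.18, 95% interval -2.78 to -1.99, adjusted p = 2.42e-06 in limma), and 2.29% of the genes tested had a more negative one.

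TIR2, also known to be induced by cold shock, had signals of 348, 422 and 400 on the floater arrays, against 1204, 1401 and 1184 on the sinker arrays. All floater arrays were low and close together, with no overlap. TIR2 was 3.15-fold lower in floaters, a log2 fold change of -1.66 (SE 0.15, limma adjusted p = 7.99e-06). TIR1, likewise known from cold shock as well as from anaerobic cells, had 457, 570 and 461 in floaters, against 1421, 1279 and 1413 in sinkers. Again no arrays overlapped, and the log2 fold change was -1.44 (SE 0.15, limma adjusted p = 1.73e-05).

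The falls of TIR1 and TIR2 could not be ordered. The within-array log2 ratio of TIR1 over TIR2 was 0.33 ± 0.12 in floaters and 0.12 ± 0.22 in sinkers, and the arrays of the groups overlapped (exact two-sided permutation p = 0.3, n = 3 each). TIR4 fell further than TIR1 on these arrays: the log2 ratio of TIR1 over TIR4 was 1.49 ± 0.32 in floaters and 0.54 ± 0.19 in sinkers, without overlap. The exact permutation p was 0.1, the smallest that 3 arrays against 3 allow, so no such pair could pass 0.05. A p of 0.1 was reached by 18 of the 21 pairs among the 7 genes tested. These pairs share genes and arrays, and the share among pairs of all genes was not computed. Of single genes tested, 26.7% lay lower in floaters without overlap and 41.3% higher. Since such a ratio compares different probes, only its difference between groups can be read.

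TIR3, also needed for growth without oxygen, did not share the fall. Its signal was 648, 796 and 661 on the floater arrays, against 565, 567 and 524 on the sinker arrays. All 3 floater arrays lay above all 3 sinker arrays, but the log2 fold change of 0.33 (SE 0.15, 95% interval 0.00060 to 0.67) did not pass the test in limma (adjusted p = 0.0750). Of the 17 alternative settings it passed in 1, with array weights (log2 fold change 0.32, adjusted p = 0.0365), and it shrank to 0.13 under median centring of the arrays, which moved the median of all genes from 0.17 to -0.03.

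Set against each of the other TIR genes, TIR3 went the other way. The within-array log2 ratio of TIR3 over TIR4 was 1.98 ± 0.31 in floaters and -0.74 ± 0.29 in sinkers. That of TIR1 over TIR3 was -0.49 ± 0.02 in floaters and 1.29 ± 0.13 in sinkers, and that of TIR2 over TIR3 was -0.82 ± 0.10 in floaters and 1.17 ± 0.11 in sinkers. In all 3 pairs the groups were separate, with an exact permutation p = 0.1, again the smallest possible.

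DAN4, a mannoprotein gene silent in well aerated cells, gave clear signals in both groups, at 574, 475 and 642 in floaters and 685, 653 and 869 in sinkers. The floater arrays were the lower ones without overlap, but by a small margin. The log2 fold change of -0.37 (SE 0.17, 95% interval -0.76 to 0.01) did not pass (limma adjusted p = 0.0838). The call depended on the setting, since DAN4 passed under quantile normalization (log2 fold change -0.51, adjusted p = 0.0440), under median centring (-0.57, adjusted p = 0.0227) and with array weights (-0.33, adjusted p = 0.0488). Without sinker replicate 3 the value was -0.25.

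DAN1, the namesake of the delayed anaerobic genes, stayed near the background in both groups. Its signal was 23.3, 20.9 and 31.5 on floater arrays and 24.6, 32.8 and 40.3 on sinker arrays. The arrays of the groups overlapped, and on sinker replicate 3 the signal lay below the brightest control taken as not spiked. DAN1 was therefore left out with the dimmest genes, and in a fit without that filter its log2 fold change was -0.23 (limma adjusted p = 0.343).

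CWP1, a wall protein gene of aerobic cells whose product is found at the birth scar, had signals of 8582, 9995 and 8694 in floaters, against 13583, 11974 and 22467 in sinkers. No arrays overlapped, and sinker replicate 3 stood well above the other sinker arrays. The log2 fold change was -0.76 (SE 0.25, 95% interval -1.32 to -0.21, limma adjusted p = 0.0214). It was -0.49 without sinker replicate 3, still past the test with an adjusted p = 0.0218 in limma.

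The CWP1 call was lost without floater replicate 1 (adjusted p = 0.0714) and without floater replicate 3 (adjusted p = 0.0722). The ACT1 3' to 5' ratio moved with CWP1, being highest on the array where CWP1 was brightest. In a fit that took this ratio into account, added once the data had been seen, the log2 fold change of CWP1 was -0.29 and no longer passed (limma adjusted p = 0.0835). With the same covariate the 3 TIR genes stayed past the test, TIR1 at -1.32, TIR2 at -1.72 and TIR4 at -2.23.

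CWP2, a major mannoprotein of aerobic walls, had signals of 9151, 12615 and 10165 in floaters and 11580, 9062 and 14782 in sinkers. The groups overlapped throughout. Its log2 fold change of -0.13 (SE 0.23, 95% interval -0.65 to 0.38) did not pass in limma (adjusted p = 0.635). The sign turned in 3 of the 17 alternatives: to 0.25 under quantile normalization (adjusted p = 0.0461), to 0.26 with the ACT1 ratio as a covariate and to 0.04 without sinker replicate 3. Leaving out floater replicate 2 gave -0.26, leaving out sinker replicate 2 gave -0.31 and leaving out floater replicate 1 gave -0.03.

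Although CWP1 and CWP2 are neighbours on chromosome XI with no protein-coding gene between them, their differences were unequal. The within-array log2 ratio of CWP1 over CWP2 was -0.22 ± 0.12 in floaters and 0.41 ± 0.19 in sinkers, without overlap (exact permutation p = 0.1, n = 3 each). TIR2 and TIR4 are neighbours on chromosome XV, and DAN1 and DAN4 on chromosome X. AUS1, a sterol uptake transporter gene on the other side of TIR2, was lower as well, at 134 ± 16.7 in floaters and 255 ± 65.2 in sinkers, a log2 fold change of -0.83 (limma adjusted p = 0.00605).

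**Figure D2:**
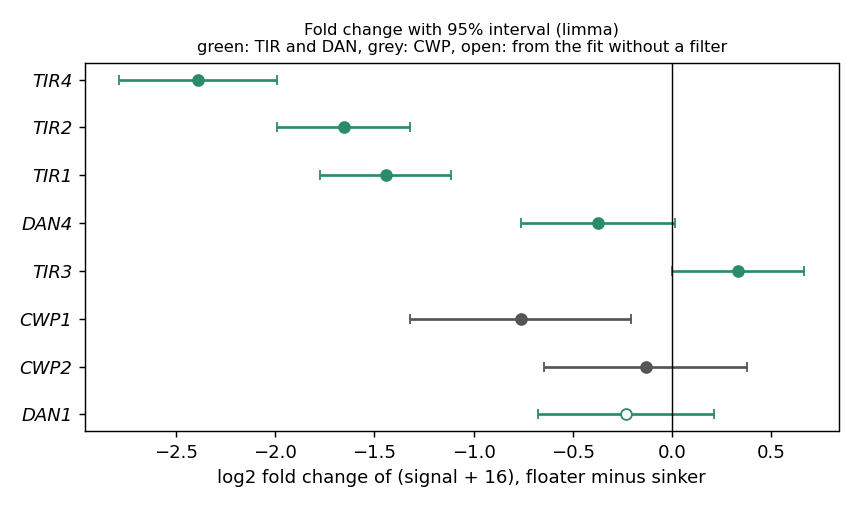
Log2 fold change of (signal + 16), floater minus sinker, with its 95% interval from limma, for the TIR and DAN genes (green) and the CWP genes (grey); the open point is DAN1, from the fit without a filter on dim genes. The intervals of TIR1, TIR2, TIR4 and CWP1 lie below 0, those of DAN4, CWP2 and DAN1 include 0, and that of TIR3 starts at 0.

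The hypoxic genes were set as a group against the aerobic pair by taking, on each array, the mean log2 value of TIR1, TIR2, TIR3, TIR4 and DAN4 minus that of CWP1 and CWP2. This was -4.38, -4.67 and -4.44 on the floater arrays and -3.78, -3.53 and -4.21 on the sinker arrays. All floater arrays were below all sinker arrays, with sinker replicate 3 nearest to them. The mean was -4.50 ± 0.15 in floaters and -3.84 ± 0.34 in sinkers, a difference of -0.66, given here without a test since the genes were chosen with results known.

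That difference rested on TIR1, TIR2 and TIR4. Against CWP2 the within-array log2 ratio of TIR4 differed by -2.25 between floaters and sinkers, that of TIR2 by -1.52 and that of TIR1 by -1.31. That of TIR3 over CWP2 differed by 0.47, in the opposite direction, and that of DAN4 over CWP2 by -0.24 with overlapping groups. Against CWP1 the differences were -1.62 for TIR4, -0.89 for TIR2, -0.68 for TIR1 and 1.10 for TIR3. The sign for DAN4 depended on which CWP gene it was set against, since against CWP1 it was 0.39, again with overlapping groups. The group difference was -1.17 under quantile normalization and -1.02 with the ACT1 ratio as a covariate.

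**Figure D3:**
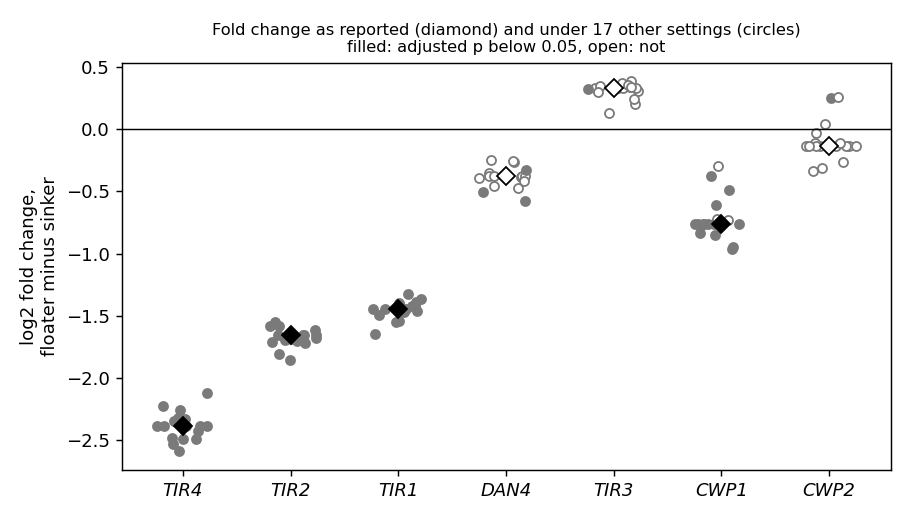
Log2 fold change, floater minus sinker, of the 7 genes tested, as reported (diamond) and under 17 other settings (circles); filled symbols have an adjusted p below 0.05. TIR1, TIR2 and TIR4 keep their direction and their call throughout, the call of CWP1 is lost in 3 settings, and CWP2 lies on both sides of 0.

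Seripauperins are short relatives of the Tir and Dan proteins and are likewise known from cells short of oxygen. Of 24 listed, 10 had a probe set of their own. All 10 were lower in floaters and past the test, with a median log2 fold change of -0.78. Among all genes tested 24.4% were lower, and the median was 0.17. PAU10 was at 96.3 ± 6.06 in floaters and 342 ± 21.6 in sinkers, and PAU4 at 201 ± 14.7 in floaters and 605 ± 64.5 in sinkers. PAU3 was at 87.6 ± 7.88 in floaters and 185 ± 19.0 in sinkers, and PAU19 at 98.6 ± 4.46 in floaters and 190 ± 11.1 in sinkers. Of the 10, PAU3, PAU7, PAU10 and PAU15 passed the filter on dim genes only through the sinker arrays. These genes are nearly identical, so their probe sets are not separate measurements of DAN3 or of one another. With the ACT1 covariate 6 of the 10 passed, and 7 to 9 passed when 1 array was left out. TIP1, a relative of the TIR genes that aerobic cells express, was bright at 9609 ± 1291 in floaters and 10671 ± 2239 in sinkers and did not pass (log2 fold change -0.14, limma adjusted p = 0.591).

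Of 30 other wall protein genes listed 27 were tested, of which 10 were higher, 7 lower and 10 not past the test, with a median log2 fold change of -0.23. These shares are close to the 38.0% higher and 24.4% lower among all genes tested. Of the 7 lower, AGA1 passed the filter on dim genes only through the sinker arrays, as did FIG2. EXG1, the major exoglucanase of the wall, had the largest rise of the list, at 2842 ± 301 in floaters and 543 ± 52.1 in sinkers (log2 fold change 2.35). SPI1, a wall protein gene induced by stress and weak acid, had a log2 fold change of -5.61. The mating agglutinin gene SAG1 was lower, at 376 ± 83.9 in floaters and 1704 ± 433 in sinkers, and FIG2, a wall protein gene of mating cells, read 95.6 ± 19.2 in floaters and 389 ± 20.4 in sinkers, having passed the filter only through the sinker arrays. CCW12, the gene of another abundant aerobic mannoprotein, read 14998 ± 3697 in floaters and 23973 ± 11705 in sinkers and did not pass (limma adjusted p = 0.142).

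Among regulators of the DAN and TIR genes and of other hypoxic genes, 18 were listed, 16 had a probe set, and 7 of these were too dim to be tested. Of the 9 tested 2 were higher and 4 lower, too few to set against the 38.0% and 24.4% of all genes. Of these 6, ROX1 and CYC8 passed the filter on dim genes only through the group where they are high, so their values are a description. ROX1, the heme-dependent repressor, read 43.6 ± 9.76 in floaters and 217 ± 107 in sinkers. IXR1, a regulator of hypoxic genes, was lower and past the test, at 160 ± 29.2 in floaters and 578 ± 84.3 in sinkers. So was MGA2, an activator of the desaturase gene OLE1, at 152 ± 13.0 in floaters and 369 ± 23.5 in sinkers. ECM22, the remaining lower one of the 4, was at 183 ± 36.5 in floaters and 267 ± 42.9 in sinkers (limma adjusted p = 0.0483). The histone deacetylase gene RPD3 was higher in floaters, at 805 ± 117 in floaters and 298 ± 27.9 in sinkers.

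The activator gene UPC2 was dim in both groups, at 26.3 ± 2.03 in floaters and 38.2 ± 2.16 in sinkers, and MOT3, another repressor of DAN and TIR genes, read 89.4 ± 14.8 in floaters and 52.0 ± 6.11 in sinkers. Neither was tested. Of the corepressor genes, CYC8 read 170 ± 44.2 in floaters and 76.7 ± 9.90 in sinkers, and TUP1, at 789 ± 111 in floaters and 1024 ± 364 in sinkers, did not pass (limma adjusted p = 0.252). Transcript levels do not give the activity of these proteins.

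Of 19 genes of heme, sterol and fatty acid metabolism under oxygen control 17 were tested. Of these, 6 were higher, 5 lower and 6 not past the test, shares close to those over all genes. Of the 6 higher, HEM25 passed the filter on dim genes only through the floater arrays. The lower ones included OLE1, the fatty acid desaturase gene (log2 fold change -2.42), ARE1, which esterifies sterols (-1.60), and HEM1, the gene for the first step of heme synthesis, at 282 ± 48.9 in floaters and 805 ± 256 in sinkers. HEM4, of a later step, was higher, at 735 ± 56.3 in floaters and 378 ± 26.9 in sinkers.

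Genes that make the GPI anchor, attach it or carry anchored proteins out of the endoplasmic reticulum were higher for 12 of 26 tested, lower for 3 and not past the test for 11, with a median log2 fold change of 0.42 against 0.17 over all genes. Among all genes tested 38.0% were higher and 24.4% lower. ERP2, of the p24 cargo receptor complex, was at 719 ± 71.4 in floaters and 184 ± 53.5 in sinkers. LAS21 and MCD4 encode enzymes that add ethanolamine phosphate to the anchor. LAS21 was at 905 ± 154 in floaters and 393 ± 63.7 in sinkers, and MCD4 at 918 ± 112 in floaters and 408 ± 120 in sinkers. TED1, which acts on the anchor before export, was at 617 ± 82.2 in floaters and 284 ± 65.3 in sinkers.

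**Figure D4:**
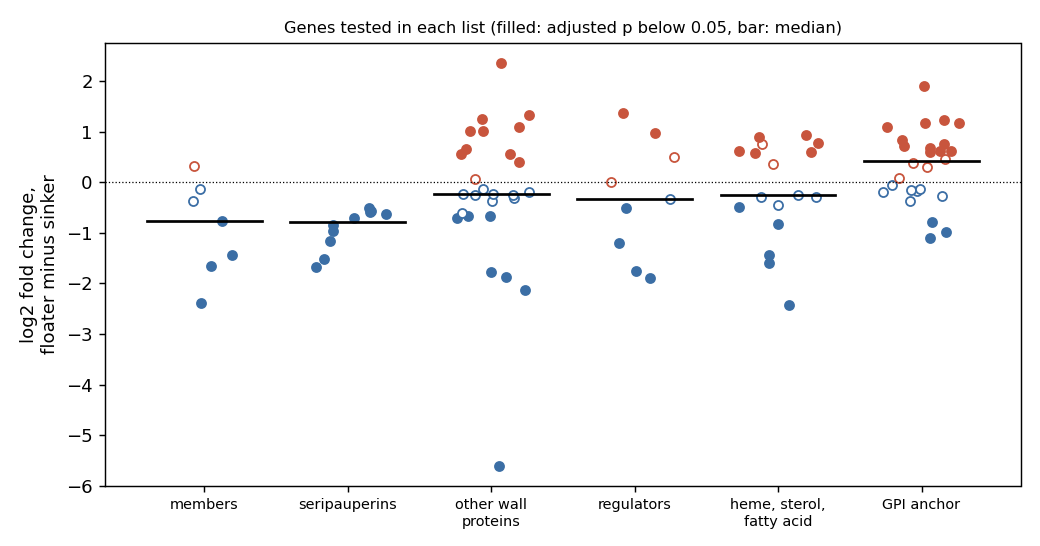
Log2 fold change, floater minus sinker, of each gene tested among the TIR, DAN and CWP genes (members) and in 5 related lists; filled points have an adjusted p below 0.05 and bars are medians. All 10 seripauperins and 4 of 7 members are filled below 0, where 24.4% of all genes tested were lower. The other lists hold filled points on both sides. Of the seripauperins, PAU3, PAU7, PAU10 and PAU15 passed the filter on dim genes only through the sinker arrays. The probe sets of these nearly identical genes are not separate measurements.

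Genes with the most similar profile over the 6 arrays were found by the root mean square distance between log2 profiles after each gene's own mean was subtracted. Nearest to the mean of TIR1, TIR2, TIR3, TIR4 and DAN4 were FOX2 (a peroxisomal beta-oxidation gene, distance 0.0328), ALD3 (an aldehyde dehydrogenase gene, 0.0457), YPL247C (0.0462), GTT3 (0.0539) and SMN1 (0.0748). FOX2 was at 1844 ± 36.3 in floaters and 4042 ± 289 in sinkers. Nearest to the mean of CWP1 and CWP2 were CIT2 (the peroxisomal citrate synthase gene, 0.0321), ALD4 (0.0410), MLS1 (malate synthase, 0.0655), SDH4 (0.0667) and FBP1 (0.0734), of which CIT2 was at 5240 ± 634 in floaters and 7372 ± 2192 in sinkers. None of these last 5 passed the test in limma, where 62.5% of all genes did (adjusted p from 0.0772 for ALD4 to 0.223 for MLS1). With 6 arrays in 2 groups, such distances mostly order genes by the size of the difference between groups.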

How the data were processed

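Per the labels' protocols, total RNA of 3 floater and 3 sinker samples was amplified, labelled with biotin and prepared for an Affymetrix array. The authors deposited a linear signal intensity for each of 9335 probe sets on every array. The submitters' processing notes name MAS5 for floater replicates 1 and 2. Its version and settings are not stated, and the other arrays have the same trimmed mean. Of the probe sets 6504 paired with exactly 1 gene, and all 5656 genes were named through a gene table of assembly R64. Signals were taken as log2(signal + 16), which understates folds of dim genes. Each gene kept its probe set of highest mean log2 value, and the dimmest 1414 genes were left out.

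The comparison of floaters with sinkers used limma 3.58.1 (R 4.3.3), with lmFit and a trended eBayes, two-sided p-values adjusted by Benjamini-Hochberg over 4242 genes and a threshold of 0.05. The median SE of a log2 fold change was 0.18, a precision limited by how few arrays there are. Single ratios were compared by exact permutation over 20 labellings. From each related list up to 4 genes past the threshold were named by smallest p, with the 5 nearest profiles to each mean. AUS1, TIP1, CCW12, UPC2, ECM22, MOT3, CYC8 and TUP1 were added by hand with their values already known. The 9 genes and the lists were chosen with earlier results of these data known. Replicate numbers were not taken to pair arrays, since the labels state no such pairing. Same-numbered arrays correlated at -0.01, -0.09 and 0.16 in their deviations from the group means. Differently numbered arrays correlated at -0.21 to 0.24. Deviations from a mean of 3 arrays are tied to one another, so these values cannot decide whether arrays were paired. Alternatives were pseudocounts of 1 and 64, no filter or one of 50%, quantile normalization, median centring, weighted arrays, no trend, every probe set on its own, a replicate block, each array left out and the ACT1 covariate. Plots used matplotlib 3.10.9 (Python 3.11.15).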

Additional observations from a re-analysis of the deposited data

How the results depend on the processing

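TIR1, TIR2 and TIR4 were lower and past the threshold under all 17 alternatives, with log2 fold changes of -1.64 to -1.32, -1.86 to -1.55 and -2.59 to -2.12. The count of the 7 genes tested that were called lower stayed between 3 and 5, and that called higher was 1 in place of 0 under quantile normalization (CWP2, whose log2 fold change turned to 0.25) and with array weights (TIR3). The difference of the TIR and DAN mean from the CWP mean moved to -1.17 under quantile normalization and to -1.02 with the ACT1 covariate, and ran from -0.84 to -0.50 when 1 array was left out. Of the lists, seripauperins called lower were 4 of 4 tested without the dimmest 50% of genes and 6 of 10 with the ACT1 covariate. They were 7 to 9 of 10 when 1 array was left out. Regulators were 1 lower and 1 higher of 4 tested without the dimmest 50%. Under median centring higher wall genes were 6 in place of 10 and higher heme, sterol and fatty acid genes 3 in place of 6. Lower GPI genes were 5 in place of 3 without a filter and under median centring, 6 with the ACT1 covariate, and 3 to 5 when 1 array was left out, 5 without sinker replicate 3. Over all genes the lower count ran from 728 to 1334 and the higher from 1104 to 1866. The replicate block changed no call of the 7 genes tested (CWP1 adjusted p = 0.0393). Where the cause of a change is not in the alternative's own construction, the cause was not tested. Signals close to the background, such as those of DAN1, allow no statement on a difference.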
